A study of Mus musculus with 92 samples.

Results

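Macrophages that carried a guide RNA against Adar (Adar1 KO, sgRNA #1) were compared with macrophages that carried a non-targeting control guide (NTC), both after 7 days of differentiation. The comparison was chosen by its labels alone and takes 6 of the 92 samples of the series, 3 knockout and 3 control libraries. The series asks how well conditionally immortalized mouse macrophages can stand in for microglia, and uses loss of Adar in them to study Aicardi-Goutières syndrome, an inherited interferonopathy.

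ADAR1, the product of Adar, converts adenosine to inosine in double-stranded RNA and so keeps the cell's own transcripts from being read as viral. Where it is missing, the sensor MDA5 (Ifih1) can signal through MAVS to interferon genes, and PKR (Eif2ak2) can halt translation. Secreted interferon-β acts through IFNAR and JAK kinases on a transcription factor complex that switches on interferon-stimulated genes through a GAAA-repeat element in their promoters.

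Both groups are ER-Hoxb8 cells: bone marrow progenitors of mice that carry 1 Cas9 allele, held in the progenitor state by an estrogen-regulated Hoxb8 transgene and released into macrophages by M-CSF once estrogen is withdrawn. Knockout cells have the genotype Cas9 het; Adar KO, and the controls Cas9 het; NTC; neither group was given a drug. Guide-transduced cells were sorted by fluorescence to make each line, and no single-cell cloning is described for these guides, so a line may hold a mixture of edits. Conditionally immortalized lines in culture also lack the tissue signals that resident macrophages receive. The labels do not say whether the replicates of a group are separate cultures, so each p-value measures only the spread between these libraries. Messenger RNA was read by sequencing of bulk RNA, in which fewer cells of a kind and less RNA per cell cannot be told apart. Sequencing depth, recovered from the values, was 34.3 M, 29.7 M and 24.4 M estimated counts in knockout replicates 1 to 3 and 22.4 M, 20.1 M and 25.5 M in the controls. At that depth 3 counts, taken as the floor of detection, are worth 0.0874 to 0.149 CPM (counts per M counts of the library) before rescaling, and this floor covers counting error only.

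Adar itself was read first. The knockout libraries held 125, 142 and 130 CPM of Adar messenger RNA and the controls 54.8, 68.8 and 51.4 CPM. The groups did not overlap, and the knockout was the higher of them, by 2.27-fold (log2 fold change 1.19 ± 0.20 SE, n = 3 and 3, limma adjusted p = 7.9e-04). Small insertions and deletions need not lower a transcript, and gene-level counts do not separate the interferon-inducible p150 form from p110. The labelled genotype can therefore not be checked from this level, and the related gene Adarb1 lay at 0.393 CPM or less in all 6 libraries.

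The cells were macrophages in both groups by their defining genes. Cd68, a lysosomal glycoprotein of macrophages, stood at 2225, 2622 and 2438 CPM in the knockouts and at 2789, 2886 and 2498 CPM in the controls. Trem2, a lipid receptor, stood at 1615, 1927 and 1945 CPM against 2044, 2184 and 1807 CPM. The groups overlapped for both genes. Summed over the 13 macrophage identity genes, the knockouts reached 13400, 13855 and 13860 CPM and the controls 16495, 16267 and 14379 CPM, without overlap. By a limma adjusted p below 0.05, 4 of the 13 were lower in the knockout, Csf1r and Mertk among them, and 2 were higher. Of all genes tested 13.1% were lower and 17.5% higher. Hoxb8 stayed at 1.31 CPM or less in every library, and the progenitor genes Elane and Ctsg at 0.242 CPM or less. The progenitor list summed to 13.6, 7.02 and 7.45 CPM in the knockouts against 3.85, 3.57 and 3.97 CPM, with Cd34 the most abundant. Of its 9 genes tested 2 were higher in the knockout, Cd34 (log2 fold change 1.77) and Prtn3 (2.08), a count near the 17.5% of all genes tested. The median log2 fold change was 0.26 (0.56 without knockout replicate 1, 0.38 without knockout replicate 2, 0.39 without control replicate 1 and -0.11 under quantile normalization). With 0.5 or 1 CPM added before the log, in place of 0.1, it was 0.11 or 0.06. Only 2 genes passed 1 CPM in at least 3 of the libraries compared, both higher, with a median of 1.92.

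Of 11094 genes tested, 463 (4.17%) were differentially expressed (DEGs): their limma adjusted p was below 0.05 and their log2 fold change, written log2FC, was 2 or more in size. There were 336 higher in the knockout (3.03%) and 127 lower (1.14%). By the adjusted p alone 3401 genes differed (30.7%): 1944 were higher (17.5%) and 1457 lower (13.1%). These genes are described as risen and fallen. The groups of 329 higher and 124 lower DEGs did not overlap, as was so for 5081 (45.8%) of all genes tested. The median log2FC over all genes tested was 0.01. Pearson's r of log2 values across genes ran from 0.976 to 0.987 among the knockouts, from 0.970 to 0.976 among the controls and from 0.914 to 0.945 between them; genes are not independent replicates. The second control library stood apart in a few genes: it held 98.7 CPM of Hba-a1, a haemoglobin chain, 3.71 CPM of H2-Aa and 6 CPM of H2-Ab1, MHC class II chains that were at or near 0 elsewhere.

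**Figure D1:**
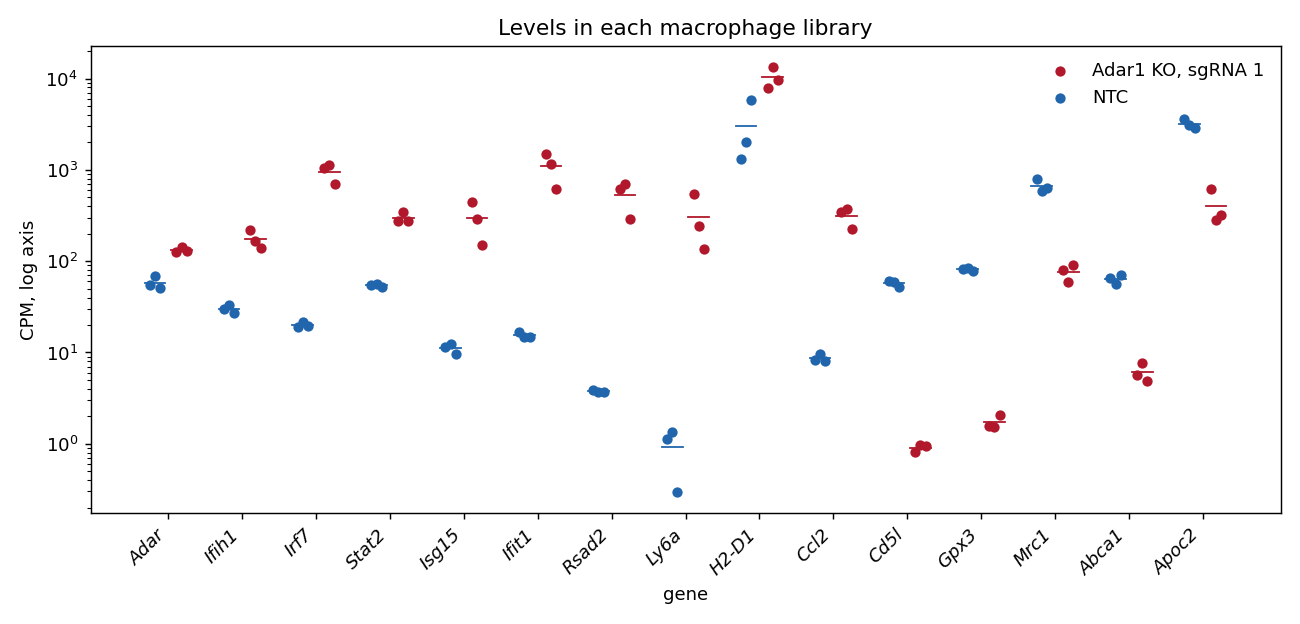
CPM on a log axis for 15 genes in each of the 6 macrophage libraries; points are libraries (knockout in red, control in blue) and short lines are group means. Interferon-stimulated genes lie higher in every knockout library and Cd5l, Gpx3, Mrc1, Abca1 and Apoc2 lie lower.

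Among DEGs whose groups did not overlap, the largest rises were in Ly6a, Atp1b2, Ifi44 and Rsad2. Ly6a, which encodes the surface antigen Sca-1, stood at 543, 243 and 136 CPM in the knockouts and at 1.12, 1.34 and 0.297 CPM in the controls. Rsad2, which encodes viperin, a producer of a chain-terminating nucleotide, stood at 613, 708 and 289 CPM against 3.86, 3.72 and 3.68 CPM. Every knockout library was above every control for both, and the third knockout was the lowest of its group. Ly6a rose with a log2FC of 8.21 ± 0.51 (adjusted p = 2.9e-07) and Rsad2 with 7.02 ± 0.30 (2.5e-08), which is 335-fold and 143-fold on the means. Cmpk2, a mitochondrial nucleotide kinase that feeds viperin, stood at 40.6, 56.7 and 31.1 CPM against 0.451, 0.291 and 0.598 CPM (6.29 ± 0.33, 9.1e-08).

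Among the other leading rises, Ifi44, an antiviral protein, read 215, 96.7 and 68.1 CPM in the knockouts and 0.232, 1.1 and 0.755 CPM in the controls (log2FC 7.33 ± 0.50). Plac8, a small cysteine-rich protein of myeloid cells, read 291, 143 and 85 CPM against 0.741, 2.56 and 0.711 CPM (6.97 ± 0.45). Pydc3, a pyrin-domain protein, read 169, 82.2 and 36.6 CPM against 0.703, 1.06 and 0.711 CPM (6.46 ± 0.46). In all of them the first knockout replicate was the highest and the groups were far apart. Apol9a was at or under the floor in the controls and at 15.4, 18 and 11.2 CPM in the knockouts, at least 84.2-fold higher, and the locus BC023105 was at least 82.5-fold higher; both have close copies that the counting could have split. Csprs rose by a log2FC of 6.70. Atp1b2, the β2 subunit of the sodium pump, read 51.1, 40.4 and 52.8 CPM against 0, 0.5 and 0.146 CPM (7.61 ± 0.49, adjusted p = 3.7e-07).

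Most genes of a list for double-stranded RNA sensing, which holds receptors and other members of the pathway, were raised. Of 8 genes, 7 rose and 1 fell, and 3 were DEGs, with a median log2FC of 1.40. The count of 7 was 6 without knockout replicate 1 or 2, without control replicate 2 or with no filter. Ifih1, the MDA5 gene, read 219, 166 and 141 CPM in the knockouts and 29.8, 32.9 and 26.9 CPM in the controls. RIG-I (Ddx58) read 321, 252 and 212 CPM against 45.4, 26.9 and 40.6 CPM. Neither pair of groups overlapped, and the log2FC was 2.53 ± 0.20 (2.3e-06) for Ifih1 and 2.81 ± 0.31 (3.1e-05) for Ddx58. Dhx58 (LGP2, a regulator of both) rose by 2.31, and Eif2ak2 (PKR) by 1.58. Mavs, the adaptor through which MDA5 and RIG-I signal, was the gene that fell, from 147, 149 and 130 CPM to 93.7, 96.1 and 97.9 CPM (-0.56 ± 0.12, adjusted p = 0.0033).

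In the list of 2'-5' oligoadenylate synthetases, enzymes that double-stranded RNA activates, all 8 genes rose, 7 of them as DEGs, with a median log2FC of 3.25. Oasl2 read 901, 743 and 555 CPM in the knockouts and 12.5, 11.2 and 11.7 CPM in the controls, a 62.1-fold difference (5.92 ± 0.35, 1.9e-07). Oas3, which makes the longest oligoadenylates, read 196, 348 and 272 CPM against 15.4, 25.8 and 17.1 CPM (3.80 ± 0.31). The groups were apart for both genes. Oas1 paralogs share sequence, so the split of reads among them is uncertain.

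The IFIT, Mx and viperin list, antiviral effectors that bind foreign RNA or viral capsids, had the largest median of the lists, 5.13, with 11 of 12 members risen and 10 DEGs. Ifit1 read 1494, 1170 and 624 CPM in the knockouts and 16.8, 14.7 and 14.7 CPM in the controls, 71-fold apart on the means (6.05 ± 0.36, 2.0e-07). Mx1, a GTPase that traps viral nucleocapsids, read 103, 76.3 and 43.6 CPM against 2.83, 3.06 and 2.47 CPM (4.61 ± 0.42). The groups did not overlap in either. Summed over the list, the knockouts held 8553, 7074 and 3843 CPM and the controls 359, 353 and 325 CPM. Ifi27 was the member that fell, from 112, 125 and 104 CPM to 38.4, 56.1 and 81 CPM (-1.02 ± 0.21, adjusted p = 0.0035).

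ISG15, a ubiquitin-like modifier, rose with its whole system, 5 of 5 genes, of which 4 were DEGs. Isg15 read 446, 293 and 151 CPM in the knockouts and 11.6, 12.5 and 9.57 CPM in the controls. Usp18, the protease that removes ISG15 and damps IFNAR signalling, read 827, 667 and 389 CPM against 16, 14.9 and 13.1 CPM. The groups lay far apart for both, with log2FC values of 4.59 ± 0.31 (6.4e-07) and 5.35 ± 0.27 (6.9e-08). Guanylate-binding proteins, GTPases that attack the membranes around intracellular microbes, rose in 6 of 7 genes, all 6 as DEGs, with a median of 4.51, or 4.34 with Gbp4 held at its bound of at least 20.3-fold. Gbp2 read 64.4, 57.1 and 26.5 CPM against 1.44, 4.77 and 0.991 CPM (4.51 ± 0.56). All 5 immunity-related GTPases tested rose as DEGs (median 3.45), led by Tgtp2, whose reads may be shared with Tgtp1. Irgm1 read 481, 460 and 323 CPM against 41.8, 35.5 and 36.2 CPM (3.45 ± 0.15, 2.5e-08).

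To show sequence beside these values, the promoter windows of 4 risen genes, picked because they hold the motif below, were read from RefSeq (build GRCm38.p6, 300 bases around the annotated start) and searched on both strands for 2 GAAA blocks set 2 bases apart, the core of the interferon-stimulated response element (TTTC blocks where it lies on the other strand). Capitals mark every match: Isg15 lies at chr4:156200769-156201068 on the minus strand, Ifit1 at chr19:34640639-34640938 on the plus strand, Rsad2 at chr12:26456403-26456702 on the minus strand and Gbp2 at chr3:142620413-142620712 on the plus strand.
Isg15: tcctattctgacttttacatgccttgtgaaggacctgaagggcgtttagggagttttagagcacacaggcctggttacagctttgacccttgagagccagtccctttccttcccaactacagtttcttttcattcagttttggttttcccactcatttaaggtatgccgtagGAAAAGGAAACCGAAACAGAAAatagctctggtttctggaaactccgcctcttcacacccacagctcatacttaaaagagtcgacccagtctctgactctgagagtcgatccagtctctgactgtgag
Ifit1: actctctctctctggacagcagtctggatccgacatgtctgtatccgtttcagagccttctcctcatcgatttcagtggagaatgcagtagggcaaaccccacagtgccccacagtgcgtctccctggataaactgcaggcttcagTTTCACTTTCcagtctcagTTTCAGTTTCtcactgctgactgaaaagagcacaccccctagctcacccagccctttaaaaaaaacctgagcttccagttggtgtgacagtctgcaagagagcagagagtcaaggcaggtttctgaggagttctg
Rsad2: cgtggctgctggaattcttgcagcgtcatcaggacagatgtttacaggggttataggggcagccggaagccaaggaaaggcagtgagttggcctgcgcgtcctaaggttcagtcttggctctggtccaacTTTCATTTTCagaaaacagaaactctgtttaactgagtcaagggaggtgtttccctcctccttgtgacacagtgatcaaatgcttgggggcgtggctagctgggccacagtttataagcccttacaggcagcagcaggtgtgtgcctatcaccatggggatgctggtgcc
Gbp2: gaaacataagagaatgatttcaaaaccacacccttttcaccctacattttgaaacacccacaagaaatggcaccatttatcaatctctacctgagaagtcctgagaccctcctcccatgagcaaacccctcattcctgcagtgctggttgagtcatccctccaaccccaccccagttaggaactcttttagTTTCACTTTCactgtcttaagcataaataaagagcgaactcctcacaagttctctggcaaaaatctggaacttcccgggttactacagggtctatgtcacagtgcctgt
Isg15 has 3 matches, which overlap, Ifit1 has 2, and Rsad2 and Gbp2 have 1 each. The motif stands in 1131 of all 32851 windows (3.44%). Per gene with a window, it stands in 332 of 8278 genes tested (4.01%), in 41 of 218 higher DEGs (18.8%) and in 3 of 92 lower DEGs (3.26%). Of the 30 leading genes (Adar, the largest and the most abundant changes) 18 have a window, and 3 of these hold the motif, Apol9a, Rsad2 and Spp1. Windows of Ifi44, Cmpk2, Plac8, Irf7, Oasl1 and H2-D1 hold none. A match describes letters in a window and shows no binding.

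The transducers of interferon moved unevenly. Stat2, which carries the signal from the receptor to the nucleus, read 277, 346 and 276 CPM in the knockouts and 54.3, 56.7 and 52.2 CPM in the controls. The groups did not overlap, with a log2FC of 2.45 ± 0.40 (6.7e-04). Irf9, its DNA-binding partner, rose by 1.39 ± 0.18. Irf7, the factor that amplifies interferon genes, read 1037, 1135 and 700 CPM against 19.2, 21.3 and 19.6 CPM, 47.7-fold apart (5.54 ± 0.24, 2.5e-08), while Irf3, its constitutive relative, read 3.73, 2.59 and 1.71 CPM against 3.6, 6.82 and 3.81 CPM (adjusted p = 0.25). Across the JAK-STAT and SOCS list 5 of 14 genes rose and 3 fell, or 1 without knockout replicate 1, and of 7 interferon regulatory factors 2 rose. Beside these counts, 17.5% of all genes tested rose and 13.1% fell.

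Interferon messages were scarce, and some receptor chains were lower. Ifnb1 read 4.18, 2.84 and 0.985 CPM in the knockouts and 0, 0 and 0.115 CPM in the controls, at least 15.1-fold higher against the highest floor of a control library, but too few libraries passed 1 CPM for it to be tested. Ifng was listed at 0 in all 6. Ifnar1, a chain of the receptor for interferons α and β, read 110, 133 and 141 CPM against 167, 215 and 239 CPM. Ifngr1 read 782, 589 and 633 CPM against 1092, 1068 and 1045 CPM. Both lay lower in each knockout library than in each control, at -0.68 ± 0.15 (0.0054) and -0.69 ± 0.11 (7.5e-04), and Il10rb, shared by the receptors for interleukin-10 and interferon-λ, fell by 0.78 on the log2 scale. In the list of interferons and receptors 3 of 5 genes fell and 1 rose, Ifngr2 (0.43, adjusted p = 0.037), a call that is lost without knockout replicate 1 or 3 or control replicate 1 or 2.

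Sensors of nucleic acid and genes of lytic death followed. Zbp1, which binds Z-form RNA and triggers necroptosis, read 371, 269 and 160 CPM in the knockouts and 11.7, 13.7 and 8.84 CPM in the controls, 23.4-fold apart (4.48 ± 0.38, 3.5e-06). Mlkl, the membrane-breaking effector of necroptosis, read 64.3, 71 and 45.2 CPM against 9.91, 7.94 and 7.31 CPM (2.81 ± 0.17, 2.5e-07). No knockout library overlapped with a control in either gene. Their list had 7 of 11 genes risen and none fallen, while Ripk1 read 30.1, 23.3 and 22.9 CPM against 26.1, 29.6 and 23.2 CPM. DNA sensors of the cGAS and PYHIN group rose in 8 of 10 genes, among them Pyhin1, from 33.4, 39.9 and 29.1 CPM to 1106, 791 and 454 CPM (4.44 ± 0.27, 2.2e-07). Of 7 genes mutated in Aicardi-Goutières syndrome, Adar and Ifih1 included, 5 rose. The count was 4 without any 1 knockout library or control replicate 1 or 2. It was also 4 with no filter, without the trend in the fit or with only the 2 groups fitted. Trex1, the exonuclease that clears cytosolic DNA, read 248, 171 and 126 CPM against 54.5, 57.9 and 43.4 CPM (1.76 ± 0.21).

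Antigen presentation by MHC class I rose in 15 of 16 genes, with a median log2FC of 1.52 and 5 DEGs. B2m, the invariant light chain, read 11105, 8497 and 6390 CPM in the knockouts and 3115, 3106 and 2597 CPM in the controls (1.53 ± 0.17, 3.3e-05). H2-D1, a heavy chain, read 7988, 13348 and 9643 CPM against 1326, 2042 and 5786 CPM; the third control came closest to the knockouts without reaching them (2.01 ± 0.41, 0.003). Tap1, the peptide transporter, read 113, 107 and 78.4 CPM against 17.9, 29.1 and 25.5 CPM (2.05 ± 0.21). Heavy-chain genes are alike in sequence, so their shares of reads are uncertain. Of MHC class II, 3 of 7 genes passed the filter and 1 rose, the peptide exchanger H2-DMb1 (1.07 ± 0.18); Cd74, the invariant chain, read 78.4, 41.3 and 27 CPM against 72, 95.6 and 62.6 CPM, with the groups overlapping (adjusted p = 0.087).

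Some chemokines for monocytes and T cells rose. Ccl2, the main monocyte attractant, read 349, 376 and 224 CPM in the knockouts and 8.21, 9.73 and 7.99 CPM in the controls. Ccl5 read 214, 237 and 74.5 CPM against 2.97, 4.14 and 1.77 CPM. The groups were apart by 36.6-fold and 59.1-fold on the means (log2FC 5.15 ± 0.37, 1.0e-06, and 5.75 ± 0.50, 3.9e-06). Cxcl10, a ligand of CXCR3 on T cells, read 15.2, 9.49 and 5.11 CPM against 0.891, 1.07 and 0.622 CPM (3.28 ± 0.34), and neither Cxcl9 nor Cxcl11 passed the filter. In all 4 of 8 CC chemokines rose, or 3 without any 1 knockout or control library, under quantile normalization or without the trend in the fit. Ccl6 and Ccl9 read 2083, 2080 and 1514 CPM against 2171, 1943 and 1787 CPM and 635, 871 and 719 CPM against 957, 966 and 754 CPM.

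Classical inflammatory cytokines moved in part. Tnf read 43.4, 38.7 and 39.4 CPM in the knockouts and 10.6, 12.3 and 8.8 CPM in the controls, without overlap (1.94 ± 0.17, 4.7e-06). Il27, of the interleukin-12 family, read 6.78, 4.62 and 2.68 CPM against 0.321, 0.538 and 0.465 CPM (3.07 ± 0.45). Il6 was at 0 in all but the second knockout, at 0.196 CPM, and Il10 and Cxcl1 reached at most 0.0588 CPM. Over the list 3 of 7 genes tested rose, or 2 of 6 without any 1 knockout library, and 1 fell, Il1b (-1.89, adjusted p = 0.014), or 0 without knockout replicate 2 or 3 or any control. A list of surface molecules, most of them ligands for lymphocytes, had 4 of 6 genes risen. Cd69, which is no such ligand but an early activation antigen that holds S1P receptor 1 inside the cell, read 112, 79.7 and 50.6 CPM against 6.56, 6.13 and 4.22 CPM (3.77 ± 0.28). Cd274, which encodes PD-L1, read 299, 303 and 205 CPM against 81.2, 65.4 and 68.8 CPM (1.89 ± 0.20).

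All 7 Schlafen genes and all 6 of the PARP list rose. Slfn1 read 1023, 795 and 477 CPM in the knockouts and 16.6, 14 and 13.9 CPM in the controls (5.62 ± 0.33, 1.8e-07), with the caution that Schlafens are close paralogs. Parp9 and its partner Dtx3l, which together modify histones, read 179, 174 and 144 CPM against 50.2, 49.6 and 45.3 CPM and 218, 253 and 222 CPM against 81.8, 91.3 and 78.2 CPM. Both pairs of groups stayed apart (1.77 ± 0.15 and 1.46 ± 0.13). Membrane restriction factors were mixed: Bst2, the tetherin gene, rose by 2.40 ± 0.18 and Ifitm3 by 1.15 ± 0.23, whereas Ifitm1 fell by 1.11 on the log2 scale.

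**Figure D2:**
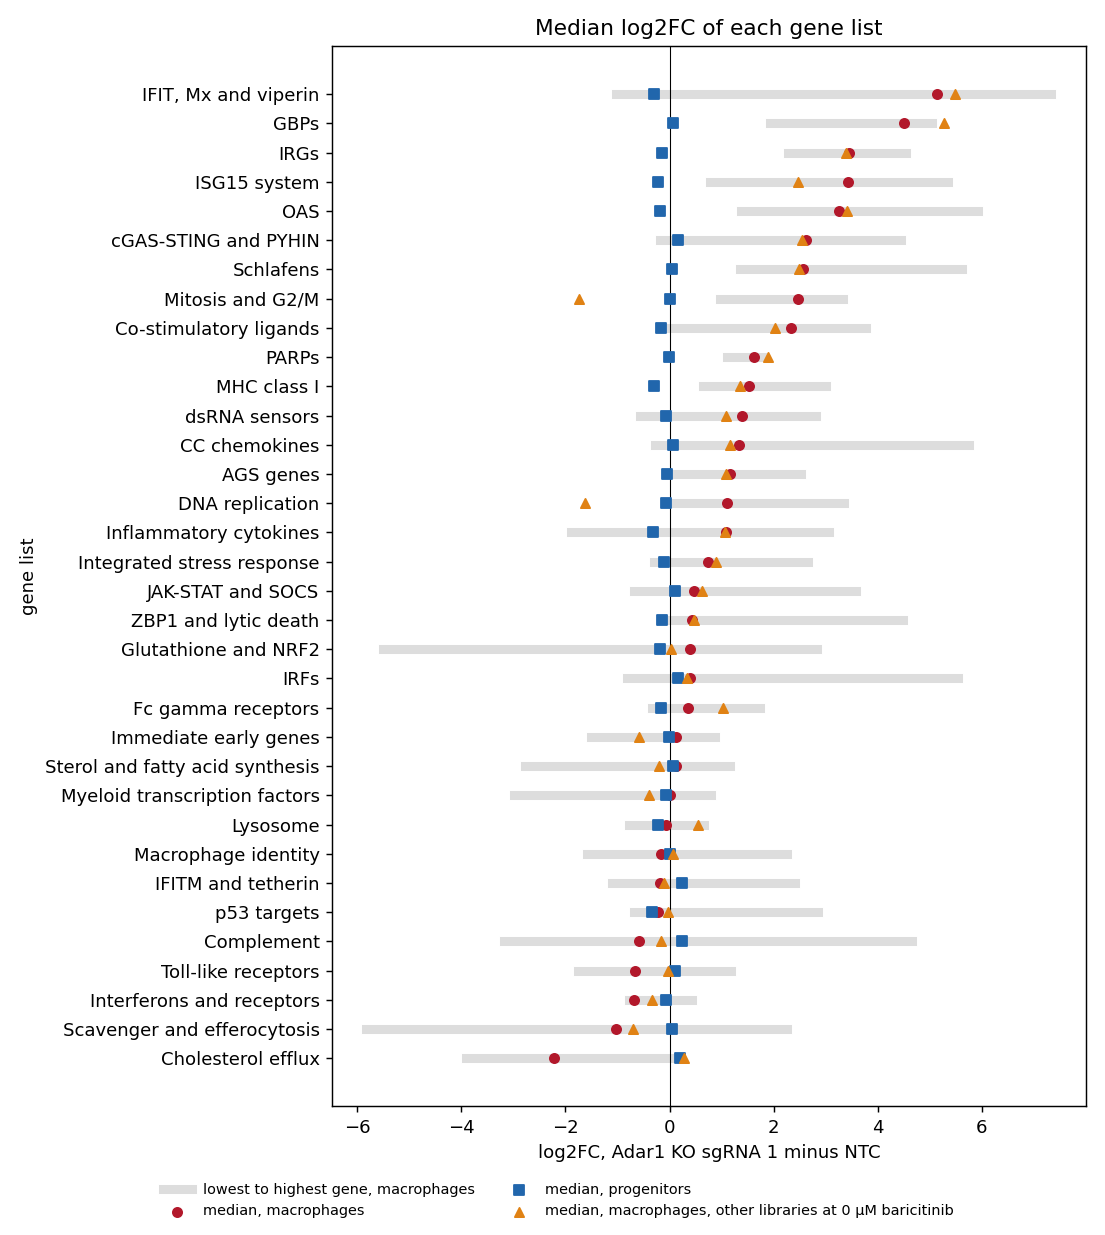
Median log2FC, knockout minus control, of each gene list with at least 5 genes tested, in the 6 macrophage libraries (circles), in progenitors (squares) and in other macrophage libraries at 0 µM baricitinib (triangles); grey bars span the lowest to the highest gene in the 6 libraries. Most interferon-related lists lie right of 0 in both sets of macrophages, while IFITM and tetherin and the interferons and receptors lie left of it; mitosis and DNA replication lie on opposite sides of 0 in the 2 sets.

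Some abundant macrophage genes also rose. Spp1, which encodes osteopontin, read 11997, 19017 and 16757 CPM in the knockouts and 2613, 3217 and 2643 CPM in the controls (2.48 ± 0.24, 1.1e-05). Msr1, a scavenger receptor for modified lipoproteins, read 1064, 912 and 811 CPM against 177, 202 and 197 CPM (2.26 ± 0.30, 1.2e-04). Ly6e, a membrane protein that blocks coronavirus fusion, read 4894, 3149 and 2493 CPM against 624, 581 and 479 CPM (2.60 ± 0.20). None of these groups overlapped. Fcgr1, the high-affinity receptor for IgG, rose by 1.73 ± 0.27, and 2 of 5 genes of the Fcγ receptor list rose.

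By log2FC the deepest fall was in Cd5l, a secreted scavenger protein of resident macrophages (-4.92 at a pseudocount of 1, where Gpx3 gave -4.94). Its levels were 0.814, 0.968 and 0.942 CPM in the knockouts and 60.1, 58.8 and 52 CPM in the controls. Gpx3, a secreted glutathione peroxidase, stood at 1.58, 1.53 and 2.04 CPM against 82.3, 85.1 and 78.7 CPM. The spread within each group was small beside the gap for both genes, which were 62.7-fold (log2FC -5.82 ± 0.24, 2.5e-08) and 47.8-fold lower (-5.51 ± 0.16, 2.2e-09). Sepp1, the plasma carrier of selenium and like Gpx3 a selenoprotein, stood at 452, 427 and 501 CPM against 8737, 8080 and 7100 CPM (-4.11 ± 0.16, 1.4e-08).

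Other leading falls were of several kinds. Slco2b1, an organic anion transporter, read 0.914, 1.45 and 1.92 CPM in the knockouts and 34.1, 55 and 32.2 CPM in the controls (-4.74 ± 0.34). Gas6, the ligand through which MERTK and AXL recognise dying cells, read 0.816, 0.301 and 0.534 CPM against 14.3, 10.5 and 10.5 CPM (-4.25 ± 0.41). Id3, an inhibitor of basic helix-loop-helix factors, read 0.399, 0.122 and 0.297 CPM against 7.31, 6.41 and 6.02 CPM (-4.24 ± 0.55). The groups were separate for each. Gprc5c, an orphan receptor, fell by 4.70 and Cbr2, a carbonyl reductase, by 4.30 on the log2 scale. Ncam2, a neural adhesion molecule, read 0.062, 0.108 and 0.132 CPM against 9.18, 8.12 and 6.78 CPM (-5.34 ± 0.32, or -3.03 at a pseudocount of 1, the knockout values lying near the floor), and Wbp5 0.757, 0.863 and 0.315 CPM against 12.8, 11.9 and 9.77 CPM (-4.04 ± 0.35).

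Some receptors of resident macrophages were lower. Csf1r, the receptor for M-CSF on which these cells depend, read 1191, 1390 and 1423 CPM in the knockouts and 3787, 3808 and 3285 CPM in the controls, without overlap (-1.44 ± 0.31, 0.0046). Mrc1, the mannose receptor, read 79.2, 59.4 and 90.5 CPM against 789, 594 and 631 CPM (-3.14 ± 0.31, 1.3e-05). Cd163, the haemoglobin scavenger, read 0.234, 0.245 and 0.587 CPM against 4.64, 4.33 and 4.73 CPM (-3.44 ± 0.38, or -2.05 at a pseudocount of 1). Of 10 scavenger and efferocytosis genes 5 fell and 1 rose, with a median of -1.03; only 8 pass the filter when any 1 control library is left out, and 3 then fall, with a median of -0.37, -0.40 or -0.26. Mertk, the receptor of that Gas6 ligand, fell by 1.59 on the log2 scale.

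Maf, a transcription factor of tissue macrophages, read 18.8, 18.1 and 19.6 CPM in the knockouts and 131, 103 and 113 CPM in the controls (-2.60 ± 0.30, 3.8e-05). Nr4a1, an early response nuclear receptor, read 1.37, 0.829 and 1.27 CPM against 8.92, 11.2 and 8.97 CPM (-2.98 ± 0.46). Both had separate groups. Over 14 myeloid transcription factors 6 fell and 2 rose, and Zeb2 read 465, 454 and 457 CPM against 468, 518 and 462 CPM. Of the 13 identity genes 4 fell and 2 rose, Msr1 and the lipopolysaccharide co-receptor Cd14 (0.83 ± 0.11), for a median of -0.17.

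Transcripts of cholesterol efflux genes were lower in part: 5 of 9 genes fell and none rose, with a median log2FC of -2.21. Efflux itself was not measured. In the other libraries at 0 µM baricitinib, described below, the list had 3 genes higher and 2 lower in the knockout, with a median of 0.27. Abca1, which loads cholesterol onto apolipoprotein A-I, read 5.65, 7.66 and 4.86 CPM in the knockouts and 64.7, 56.7 and 71 CPM in the controls, 10.6-fold lower (-3.40 ± 0.34, 1.2e-05). Pltp, which moves phospholipid between lipoproteins, read 7.18, 11.5 and 7.88 CPM against 105, 168 and 129 CPM (-3.91 ± 0.31, 1.8e-06). Apoc2, the cofactor of lipoprotein lipase, read 613, 282 and 321 CPM against 3625, 3071 and 2865 CPM (-3.06 ± 0.26). All 3 had groups well apart. Apoe read 2.68, 2.51 and 3.16 CPM against 3.77, 80.6 and 7.42 CPM, where the second control alone was high, and did not pass the test (adjusted p = 0.06). Without that library the list had a median of -1.57, still with 5 genes lower. Nr1h3, the LXRα gene, read 17.3, 30.5 and 32.6 CPM against 19.9, 26 and 24.8 CPM.

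Sterol and fatty acid synthesis moved in both directions, with 5 of 13 genes higher and 3 lower. These counts were 3 and 1 without control replicate 2, and 4 and 1 without knockout replicate 1. They were 5 and 1 at a pseudocount of 1, where Scd1 and Hmgcs1 lost their calls, and 5 and 5 with a replicate block. Lysosomal genes were near the background, with 2 of 16 higher and 2 lower (1 lower without knockout replicate 1 or 3 or any control). Among antioxidant genes 3 of 11 rose, led by glutathione reductase, Gsr, at 55.5, 30.9 and 28.4 CPM in the knockouts against 5.86, 5.28 and 4.07 CPM in the controls (2.84 ± 0.21, 1.3e-06), and Gpx3 fell. Trf, the transferrin gene, read 133, 102 and 141 CPM against 871, 982 and 818 CPM (-2.84 ± 0.12, 2.5e-08), and F13a1, a clotting transglutaminase of macrophages, 291, 190 and 212 CPM against 1631, 1290 and 1274 CPM (-2.61 ± 0.22).

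Complement split by pathway. C1qa, of the recognition molecule of the classical pathway, read 4.65, 2.19 and 1.95 CPM in the knockouts and 22.2, 34.3 and 20.9 CPM in the controls (-3.17 ± 0.32, 1.6e-05), and C1qb and C1qc fell with it. Cfb, the protease of the alternative pathway, read 142, 99 and 32.7 CPM against 2.4, 6.36 and 1.72 CPM (4.65 ± 0.53, 3.9e-05), and C3, cleaved by both, rose by 1.98 ± 0.40. The groups did not overlap in any of these. Over the list 5 of 10 genes fell and 3 rose. Toll-like receptors were mostly lower, 6 of 9 with a median of -0.67, while Tlr3, the endosomal receptor of double-stranded RNA, rose (1.18, adjusted p = 0.025), a call lost without knockout replicate 1 or 2 or control replicate 2. Among those that fell was Tlr8, a sensor of RNA fragments, at 86, 87.4 and 93.6 CPM against 221, 231 and 192 CPM (-1.27 ± 0.25).

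Cell cycle genes were higher in the knockout. All 20 mitosis genes rose, 16 as DEGs, with a median log2FC of 2.46, and 19 of 20 DNA replication genes rose, 5 as DEGs, with a median of 1.10. Mki67, the proliferation antigen Ki-67, read 21.5, 20.5 and 21.8 CPM in the knockouts and 4.75, 4.6 and 4.33 CPM in the controls (2.20 ± 0.12, 1.1e-07). Top2a, which untangles chromosomes, read 69, 68.1 and 70.6 CPM against 13.7, 14.5 and 11.6 CPM (2.38 ± 0.12, 7.2e-08), and Rrm2, the rate-limiting subunit of ribonucleotide reductase, 70.2, 81.3 and 77.5 CPM against 6.45, 9.07 and 7.75 CPM (3.29 ± 0.15, 3.5e-08). The replicates of each group were close together and the groups apart. Pcna, the exception, read 141, 167 and 151 CPM against 131, 159 and 129 CPM (0.13 ± 0.12, adjusted p = 0.41). Summed mitosis genes reached 419, 432 and 452 CPM against 89.3, 88.2 and 83.7 CPM.

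Stress genes rose in part. Ddit3, the CHOP factor of the integrated stress response, read 192, 195 and 116 CPM in the knockouts and 27.7, 26.9 and 24.6 CPM in the controls (2.62 ± 0.19, 8.9e-07). Trib3, a pseudokinase that CHOP induces, read 19.7, 18.3 and 8.72 CPM against 1.88, 2.36 and 2.51 CPM (2.66 ± 0.38). In that list 4 of 10 genes rose. Of 10 targets of p53 2 rose, Mdm2 and Gdf15, and 2 fell (0 without knockout replicate 2 or 3 or control replicate 1, and 1 without any other library), while Cdkn1a, the p21 gene, read 339, 272 and 234 CPM against 292, 302 and 277 CPM. These counts lay near the shares of all genes tested, 17.5% risen and 13.1% fallen. Immediate early genes had 1 of 8 fallen, the antiproliferative Btg2 (-1.50 ± 0.23).

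Markers of other cells were scarce. T, B and NK cell genes summed to at most 0.663 CPM in the knockouts and to 0.303, 2.14 and 0.129 CPM in the controls (most abundant Cd8a; Ncr1 and Klra8 at 0), and none of 11 passed the filter. Mast cell and basophil genes summed to at most 0.371 CPM, led by Hdc, and fibroblast and endothelial genes to 21.5, 20.5 and 22.6 CPM against 9.19, 13.9 and 21.5 CPM, nearly all Pecam1; neither list had a call. Dendritic cell genes summed to 7.66, 7.16 and 10.2 CPM against 4.38, 6.11 and 4.24 CPM, with 1 of 4 tested risen, Itgax, which macrophages also use, and Ccr7 at 0. Erythroid genes summed to 0.825, 0.982 and 0.807 CPM against 3.36, 104 and 3.25 CPM, most of it Hba-a1 in the second control, and 1 of 2 fell, the erythropoietin receptor Epor, which drops below the filter without any 1 control; without control replicate 2 the single gene tested is instead higher, with a median of 1.35 for the list in place of -2.67. Neutrophil genes summed to 83.5, 89.5 and 86.3 CPM against 21.1, 10.2 and 15.9 CPM. Of 8 tested 4 rose, with a median of 1.04 (0.54 with bounds for genes at the floor). At a pseudocount of 0.5 or 1 only 2 rose, Camp and Ngp losing their calls, with a median of 0.43 or 0.27. With only the 2 groups fitted 1 of 3 rose, with a median of 0.35. S100a8 made up most of the sum, and its partner S100a9 was at 0 in every library but a control at 0.0361 CPM. Their part in the results was not tested. Progenitor genes had 2 of 9 risen, Cd34 and Prtn3, osteoclast genes 1 of 4 fallen (0 without knockout replicate 1 or 3 or any control), and the Y-linked and Xist list no call in 2 genes tested. Over all genes tested the shares were 17.5% risen and 13.1% fallen.

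**Figure D3:**
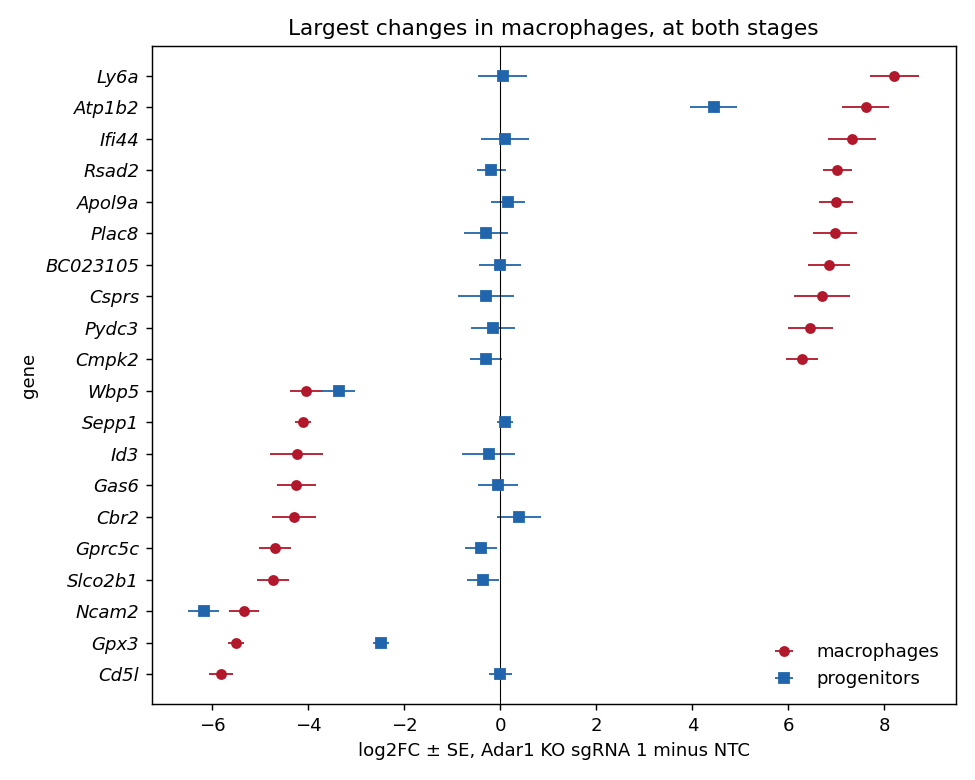
Log2FC with its standard error, knockout minus control, in macrophages (circles) and in progenitors (squares) for the 10 largest rises and the 10 largest falls among macrophage DEGs. Progenitor values lie near 0 except for Atp1b2, Gpx3, Ncam2 and Wbp5.

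Progenitors with the same guide labels, 3 knockout and 3 control libraries, give the stage before differentiation. The labels do not say that they come from the same lines as the macrophages: the control progenitors carry the library name NTC2, as does control macrophage replicate 2, while control replicates 1 and 3 are named NTC. There 29 genes (0.261%) were DEGs, 10 higher (0.0901%) and 19 lower (0.171%), and by the adjusted p alone 114 differed (1.03%), 81 of them lower (0.730%). The test of the difference between the stages, macrophage log2FC minus progenitor log2FC, gave 503 DEGs (4.53%). By the adjusted p alone this difference was above 0 for 1241 genes (11.2%) and below 0 for 793 (7.15%). A difference above 0 can also be a weaker fall in macrophages. Ly6a read 2.48, 1.55 and 1.79 CPM in knockout progenitors and 2.08, 1.8 and 1.64 CPM in control progenitors, and Isg15 1.15, 1.31 and 1.26 CPM against 1.3, 1.74 and 1.16 CPM. The groups overlapped for both genes, and the difference between the stages was 8.15 ± 0.72 (1.4e-05) for Ly6a and 4.73 ± 0.44 (2.1e-05) for Isg15. Mki67 read 138, 137 and 145 CPM against 160, 113 and 136 CPM in progenitors, and the stages differed by 2.15 ± 0.17 (6.4e-06). Lists of interferon-stimulated genes had progenitor medians near 0, such as -0.29 for IFIT, Mx and viperin.

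In both stages 10 genes were DEGs, each in the same direction. Ncam2 read 0.166, 0.305 and 0.446 CPM in knockout progenitors and 19, 33.4 and 34.7 CPM in control progenitors (-6.18 ± 0.32, 2.4e-06), and its stage difference did not pass the test (0.83, adjusted p = 0.23). Wbp5 read 0.749, 0.799 and 0.703 CPM against 5.52, 12.3 and 9.51 CPM (-3.37 ± 0.35). Ngfrap1, a relative of Wbp5 in the Bex family, was at 0 in all knockout macrophages and at 1.24, 0.974 and 0.774 CPM in the controls, at least 8.02-fold lower, and lower in progenitors by -3.54 ± 0.36. Atp1b2 read 12.9, 22.2 and 20.5 CPM against 0.717, 0.813 and 0.679 CPM in progenitors, and Stag3, a meiotic cohesin, 44.4, 26.2 and 41.7 CPM against 6.1, 2.4 and 3.66 CPM. Knockout and control progenitors were apart for all 5 genes. The other 5, Gpx3, C1qtnf6, Gpr65, Morn4 and Pkib, were lower in the knockout at both stages.

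Other libraries of the same guide and control allowed a second look that shares no library with the first: 3 knockout and 3 control libraries of macrophages kept at 0 µM baricitinib in a JAK inhibitor experiment, sequenced at another site and normalized apart. There 432 of 11152 genes tested (3.87%) were DEGs, 214 higher (1.92%) and 218 lower (1.95%), and 2816 differed by the adjusted p alone (25.3%), 1286 higher (11.5%) and 1530 lower (13.7%). The share of its DEGs that were higher, 49.5%, was 64.1% at a pseudocount of 1 and 39.5% at a log2FC of at least 1 in size. Of 321 higher DEGs tested in both sets, 126 were higher DEGs again, which is 39.3% of them and 60.3% of the 209 higher DEGs of the second set; of 113 lower DEGs, 45 were, or 39.8% and 25.3% of 178. Against these, 27 higher DEGs were lower DEGs in the second set, and 3 lower DEGs were higher.

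Interferon-stimulated genes rose in both sets. Ifit1 read 455, 496 and 570 CPM in the knockouts of the second set and 3.4, 4.05 and 2.68 CPM in its controls (7.18, adjusted p = 2.1e-04). Ly6a read 103, 126 and 126 CPM against 0.759, 0.437 and 0.068 CPM (7.93), and Adar 171, 91.4 and 82.7 CPM against 34.6, 30.6 and 25.7 CPM (1.85, 0.0051). In each the groups were apart. All 5 genes of the ISG15 system rose in both sets, as did 9 of 12 of the IFIT, Mx and viperin list, 7 of 8 of the OAS list and 10 of 16 of MHC class I. Ddit3 rose again (2.89), as did Gsr (2.41), and Cd5l (-5.56), Pltp (-2.70) and Cd163 (-2.72) fell again. Other lists held fewer repeats: 1 of 10 integrated stress genes and 0 of 6 inflammatory cytokines rose in both sets, and of 9 cholesterol efflux genes 1 fell in both. Tnf gave 0.59 (adjusted p = 0.16) and Il27 1.53 (0.25) in the second set.

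Cell cycle genes took opposite directions in the 2 sets. Mki67 in the second set read 14, 25.3 and 22.9 CPM in the knockouts and 86.5, 117 and 95.1 CPM in the controls (-2.29, adjusted p = 4.2e-05). Top2a read 51.7, 49.5 and 66.1 CPM against 176, 266 and 231 CPM (-2.0, 6.6e-05). Knockout levels lay near those of the first set and control levels far above those of its controls, on scales that were normalized apart. In all 17 of 20 mitosis genes and 19 of 20 DNA replication genes rose in the first set and fell in the second, where the list medians were -1.73 and -1.63. The difference between the sets was not tested.

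Abca1 and Spp1 also took opposite directions, and Sepp1, fallen in the first set, did not pass the test in the second. Abca1 in the second set read 9.28, 8.28 and 6.39 CPM in the knockouts and 1.2, 1.41 and 0.568 CPM in the controls (2.81, adjusted p = 0.0016), higher in the knockout where it had been lower. Spp1 read 9943, 12316 and 16248 CPM against 43534, 49217 and 53729 CPM (-1.95, 8.7e-09). Sepp1 read 334, 357 and 385 CPM against 409, 336 and 412 CPM, with overlap (-0.10, adjusted p = 0.64). Knockout levels of these 3 genes were again near those of the first set, while control levels differed between the sets many-fold. Csf1r read 1572, 1610 and 1545 CPM against 1530, 1657 and 1356 CPM (0.06, adjusted p = 0.87). Mertk (1.53) and Apoc1 (2.34) were higher in the knockouts of the second set and had fallen in the first. Of 12 sterol and fatty acid synthesis genes tested in both sets, 3 rose in the first and fell in the second, and 0 rose in both. Of the 13 macrophage identity genes 0 rose in both sets and 0 fell in both. Cd14, 1 of the 2 that rose in the first set, fell in the second. Of the 4 that fell in the first set, 2 rose in the second.

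**Figure D4:**
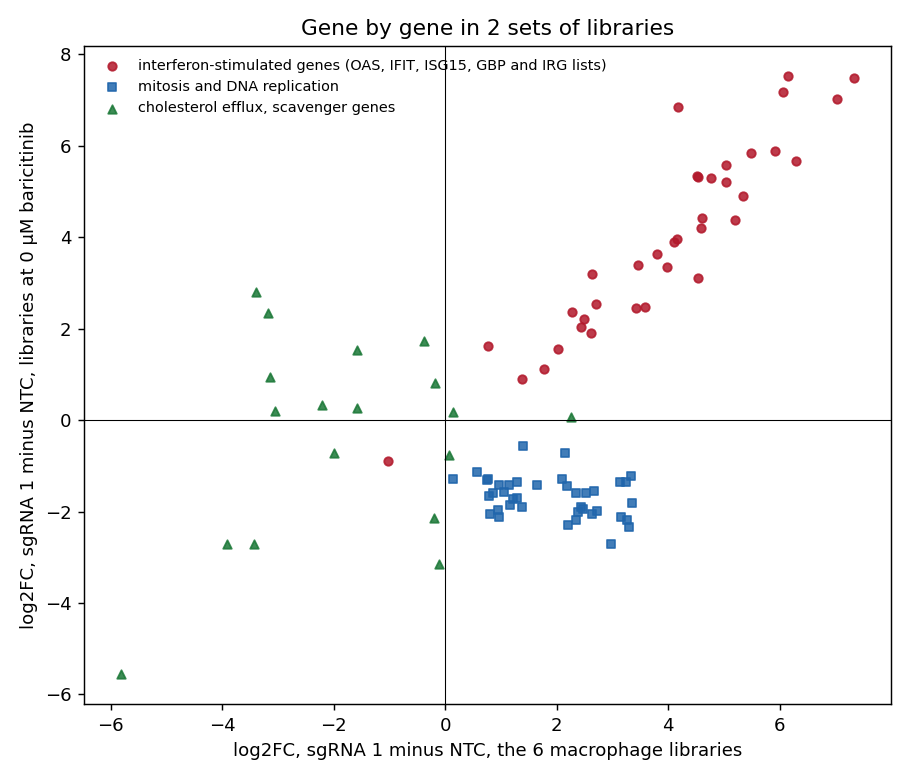
Log2FC, knockout minus control, of genes from several lists in the 6 macrophage libraries (x axis) and in the separate libraries at 0 µM baricitinib (y axis), 1 point per gene. Interferon-stimulated genes lie along the upper right, and mitosis and DNA replication genes lie right of 0 on the x axis and below 0 on the y axis.

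A second guide, sgRNA #2, was read in 5 macrophage libraries against the same 3 controls, so its values stand beside those of the first guide without a count of shared genes; 915 of 11135 genes (8.22%) were DEGs for it, 618 higher (5.55%) and 297 lower (2.67%), and 7013 differed by the adjusted p alone (63.0%). All 5 libraries are in another normalization set (lowest value -3.56) than the controls (-3.43 and -3.09), so guide and set cannot be told apart in these counts. Adar read 130, 128, 127, 127 and 126 CPM with sgRNA #2 (log2FC 1.08, adjusted p = 4.1e-05). Ly6a read 39.1, 58.8, 56.9, 48.4 and 68.1 CPM, and Ifit1 1039, 1105, 997, 992 and 1136 CPM. All lay above the controls. Cd5l was at 0.058 CPM or less and Mrc1 read 33.4, 27, 27.2, 28.5 and 29.2 CPM, all below the controls. Atp1b2 read 0.353, 0.609, 0.183, 0.0811 and 0.29 CPM with sgRNA #2 and was too low to be tested, Stag3 gave -0.78 (adjusted p = 0.35), and BC023105 read 0.444, 0.522, 0.345, 0.753 and 0.367 CPM. The difference between the guides was not tested.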

How the data were processed

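Per the labels, the authors quantified reads with kallisto 0.46.0 (labelled build GRCm39) and normalized with edgeR; the deposited values are log2 CPM, 29957 entries of which 1 has no gene name (0.00894% to 0.0207% of a library). The values form 6 normalization sets, each with its own lowest value, and control replicate 2 is in another set than the rest, so CPM was rebuilt as 2 to the power of the value minus the same for the lowest value. These were rescaled by an unweighted trimmed mean of log ratios. limma 3.58.1 in R 4.3.3 (trend, Benjamini-Hochberg adjustment) was fitted to log2(CPM + 0.1) over 12 libraries in 4 groups, keeping each gene that passed 1 CPM in 3 or more of them; log2FC on this scale understates low genes. The 0 µM libraries were fitted on deposited values with all 33 baricitinib libraries in 10 groups, and sgRNA #2 over 14. Python 3.11.15, numpy 2.4.6 and pandas 2.3.3 made the tables. Steps were tested on simulated data. The smallest exact permutation p for 3 against 3 is 0.1. Named genes are Adar, the 10 largest non-overlapping DEGs in each direction with a mean CPM above 1 in a macrophage group, the 5 most abundant in each, DEGs of both stages, and members of fixed gene lists; some of these are not reported here, and members and lists were chosen with earlier results of these data known. Deviations from the group mean gave r = 0.35, 0.16 and 0.21 between progenitors of the same number, 1 to 3. Between progenitors of different numbers r ran from -0.25 to 0.07. Deviations from a mean of 3 libraries sum to 0, which lowers r between different numbers, so these values cannot show a pairing. The labels give no pairing, and the fit used group means only. Antisense overlaps are uncertain where strand was not used.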

Additional observations from a re-analysis of the deposited data

Results flagged for a closer look

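The effect of the knockout differed between macrophages and progenitors by a test of the difference itself (limma, adjusted p below 0.05) for Adar and 26 of the other leading genes, the largest and the most abundant changes in macrophages; further named genes differ as well. Macrophage minus progenitor log2FC was 0.88 for Adar. Among the largest rises it was 8.15 for Ly6a, 7.27 for Plac8, 7.23 for Ifi44, 7.21 for Rsad2, 6.99 for Csprs, 6.84 for BC023105 and 6.83 for Apol9a, 6.61 for Pydc3, 6.60 for Cmpk2 and 3.17 for Atp1b2. Among abundant genes that rose it was 2.77 for H2-D1, 2.66 for Ly6e, 2.32 for Spp1 and 2.16 for Msr1. For the largest falls it was -5.82 for Cd5l, -4.68 for Cbr2, -4.38 for Slco2b1, -4.31 for Gprc5c, -4.21 for Sepp1, -4.20 for Gas6, -4.0 for Id3 and -3.02 for Gpx3. For abundant genes that fell it was -3.69 for Apoc2, -3.51 for Mrc1, -2.40 for Trf and -1.31 for F13a1. Sizes of genes that are low in a macrophage group depend on the pseudocount: the macrophage log2FC of BC023105, Apol9a, Csprs, Atp1b2, Cbr2 and Id3, among others, is smaller at a larger one.

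In 3 abundant genes the 0 µM baricitinib libraries, whose groups did not overlap, differed against the direction of the first set: Mrc1 had a log2FC of 0.95 and Trf of 0.97 there, both lower in the knockouts of the first set, and Spp1 of -1.95, higher in the first. The difference between the sets was not tested.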

How the results depend on the processing

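The counts of DEGs depended on the threshold and on how low genes were handled. With a pseudocount of 1 macrophages had 285 DEGs, 59 of them lower, progenitors 13 (18 at a pseudocount of 0.5), the stage difference 317, the 0 µM libraries 251 and sgRNA #2 503. With genes above a mean of 5 CPM only, macrophages had 307 DEGs, 54 of them lower, progenitors 15, the 0 µM libraries 263 and sgRNA #2 542. At a log2FC of at least 1 in size there were 1383 in macrophages, 876 higher and 507 lower, 83 in progenitors, 1216 for the stage difference, 1259 at 0 µM and 2830 for sgRNA #2. Leaving out 1 of the 6 macrophage libraries gave 416 to 490 in macrophages (294 to 393 higher, 90 to 133 lower) and 438 to 512 for the stages, and leaving out 1 of the 3 controls gave 775 to 928 for sgRNA #2. No library of progenitors, of sgRNA #2 or of the 0 µM set was left out. The share of DEGs that were higher, 72.6%, was 76.7% on deposited values, 77.2% without rescaling and 68.9% with quantile normalization. Macrophages of the same number did not deviate together (r = 0.12, -0.02 and 0.13), which cannot show whether they were paired. A replicate block gave 466 DEGs in macrophages and 29 in progenitors. For the stage difference a fit of only the groups compared is the fit already used. Of 5006 gene values over 19 settings 4863 kept their call, and 122, from 27 genes, lost it (Stat3, Il1b and Tlr7 among them); no gene called changed sign. Among genes not called, Apoe passed under quantile normalization (-2.34), array weights (-2.55) and without control replicate 1 (-3.10), Cd74 under array weights (-0.97) and without knockout replicate 1 (-1.17), and Cd68 under quantile normalization (-0.31). Values near 0 changed sign, none of them called: Ripk1 and Cdkn1a to 0.04, Ccl6 to 0.03 and Zeb2 to 0.02 on deposited values and without rescaling; without knockout replicate 3 Ripk1 to 0.02, Ccl6 to 0.09, Nr1h3 to -0.02 and Cdkn1a to 0.07; Ripk1 to 0.01 without knockout replicate 2 and 0.03 without control replicate 2; and Ccl6 to 0.01 without control replicate 1. Without knockout replicate 1 these read -0.18 for Ripk1, -0.14 for Ccl6, 0.43 for Nr1h3 and -0.20 for Cdkn1a.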
